A study of Homo sapiens with 4 samples.

Results

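NCM460 is a line of cultured normal human colon epithelium, and the 2 libraries described here were made from these cells without additive and after exposure to sturgeon chondroitin sulfate (SCS) at 100 μg/mL for 24 h. They are 2 of the 4 RNA-seq libraries of the study. The other 2 come from HT-29 colon carcinoma cells under the same 2 conditions and are used here only for comparison. SCS was prepared from a hybrid sturgeon (Acipenser schrenckii × Huso dauricus), and NCM460 cells served as the non-tumour counterpart of HT-29. No allele, transgene or further agent is named for any group. Each condition is 1 library, so the SCS library is compared with the control library with no estimate of the spread between cultures and with no test. The study's methods state that experiments were done in biological replicates, and whether cultures were pooled for a library is not given in the sources used here. Of the 18650 loci in the table, 12652 were compared, those whose level averaged 1 CPM or more (fragments scaled to library size by TMM, a factor that balances most genes between libraries). A locus is a gene, or a group of overlapping genes that carry the same values in every column.

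Chondroitin sulfate is a chain of alternating glucuronic acid and N-acetylgalactosamine with sulfate groups, carried by proteoglycans on the cell surface and in the matrix. Added as a free polysaccharide, it can bind growth factors and surface proteins, and it can be taken up and broken down in lysosomes. In a dividing epithelial line, the transcripts read out here include those of the programmes that such a line runs at all times. Among these are glycolysis, sterol synthesis, protein folding, histone production and the rapid response of the AP-1 transcription factors to serum and growth factors.

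The NCM460 control library held 1347854 fragments and the SCS library 1156568, of which 62.3% and 46.3% came from the mitochondrial genome. Nuclear genes were thus read with 507692 and 621582 fragments, and 12742 and 14209 loci were detected. At this depth 3 fragments, the floor used below, stand for 3.85 CPM in the control and 2.77 CPM in the SCS library. Of 16 colon epithelial markers, 6 were above the floor in both libraries (EPCAM, CDH1, KRT8, KRT18, KRT19 and CDX2). The other 10, VIL1, LGALS4, CDH17 and MUC2 among them, were at 0 fragments in both, so that simple epithelial keratins rather than markers of mature colon were what the libraries showed. These did not move together: EPCAM had 36 fragments without SCS and 126 with it, CDH1 96 and 99, KRT8 1406 and 1117, and KRT19 1285 and 1150. Markers of other cell types were low. The 10 mesenchymal markers summed to 38 and 48 fragments, the 6 squamous or basal markers to 5 and 9, and the 4 endothelial markers to 7 and 2. PTPRC and the other leukocyte markers were at 0 except CD68, whose locus also holds EIF4A1. In bulk libraries of this kind, fewer cells of a type and less RNA per cell cannot be told apart.

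Transcripts poor in G and C were higher in the SCS library, and transcripts rich in G and C were lower. Across the 7303 loci that averaged 10 CPM or more, Spearman's rank correlation of the log2 change (SCS over control) with transcript GC content was -0.72. The points share 2 libraries, so the value describes these libraries. It was -0.58 with the deposited FPKM values, and -0.11 for SCS over control in HT-29. A smooth curve through the changes, called the trend here, ran from a log2 change of 1.96 in the most AT-rich transcripts to -0.78, and it crossed 0 at a GC content of 50.4%. Among loci with a GC content under 38%, 31.9% were called higher and 0.912% lower. Among those of at least 62%, 1.11% were called higher and 35.8% lower.

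What this means at the level of the transcripts can be seen in stretches of 60 coding bases, printed 5′ to 3′ from the sense strand, with G and C in capitals. Each was taken where the GC content of the stretch is closest to that of the whole coding sequence (GENCODE release 29, GRCh38). The first pair, from IDI1 (chr10:1039152-1049170, minus strand) and HSPD1 (chr2:197486581-197516737, minus strand), have 27 and 25 G or C bases and belong to genes that were higher with SCS. The second pair, from FOS (chr14:75278774-75282230, plus strand) and SLC2A1 (chr1:42925375-42959176, minus strand), have 36 and 35 and belong to genes that were lower.
IDI1: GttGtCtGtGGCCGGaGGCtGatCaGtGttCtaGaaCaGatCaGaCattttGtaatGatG
HSPD1: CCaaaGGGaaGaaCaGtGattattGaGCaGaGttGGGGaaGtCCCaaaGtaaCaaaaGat
FOS: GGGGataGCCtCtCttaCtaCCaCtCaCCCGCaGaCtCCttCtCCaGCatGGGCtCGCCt
SLC2A1: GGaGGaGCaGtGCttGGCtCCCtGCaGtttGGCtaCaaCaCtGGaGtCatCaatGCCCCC
The third pair are from GC-rich transcripts that were higher with SCS, against the trend. GADD45A (chr1:67685061-67688338, plus strand) has 35 G or C bases in the stretch and CTBP2 (chr10:124984317-125161170, minus strand) has 38. The last pair are from AT-rich coding sequences that were lower with SCS, also against it. DYNLL2 (chr17:58083415-58095536, plus strand) has 28 and S100A10 (chr1:151982915-151994390, minus strand) has 26.
GADD45A: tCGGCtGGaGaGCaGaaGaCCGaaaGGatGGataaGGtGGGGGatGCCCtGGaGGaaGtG
CTBP2: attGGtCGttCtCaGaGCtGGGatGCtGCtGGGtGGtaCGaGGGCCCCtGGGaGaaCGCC
DYNLL2: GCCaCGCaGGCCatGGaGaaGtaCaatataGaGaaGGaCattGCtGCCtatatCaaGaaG
S100A10: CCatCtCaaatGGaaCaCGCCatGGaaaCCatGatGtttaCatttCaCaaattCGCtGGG

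The library that stood apart in GC content was the NCM460 control. Relative to the mean of the 4 libraries, its median level was -1.09 on the log2 scale for transcripts of 38 to 42% GC and 0.84 for those of at least 62%. The same 2 values were 0.28 and 0.12 in the NCM460 library with SCS, 0.34 and -0.38 in the HT-29 control, and 0.52 and -0.49 in HT-29 with SCS. A difference in how the control library was made and a response of the cells to SCS cannot be told apart with 1 library a side. Genes that departed from the trend, or went against it, are therefore described below apart from those that followed it.

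**Figure D1:**
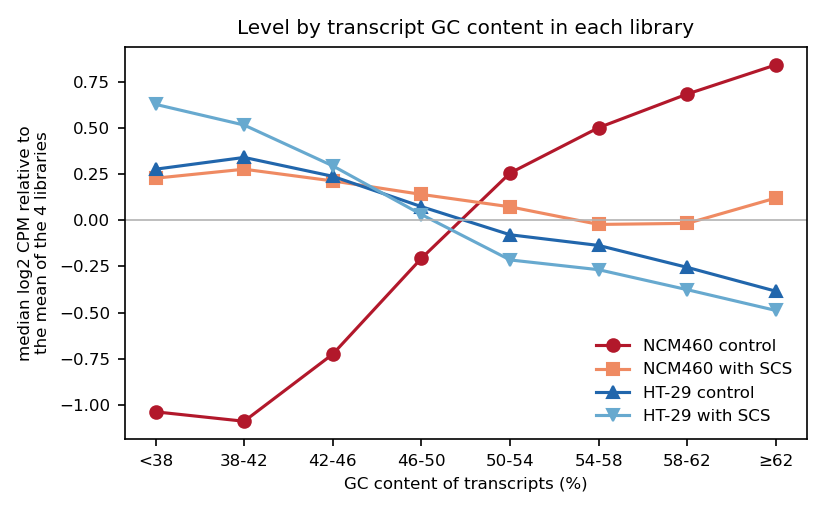
Median level of transcripts by GC content (x axis, %) in each of the 4 libraries, as log2 CPM relative to the mean of the 4 (y axis). Each point is the median over the loci of 1 GC class that averaged 10 CPM or more in the NCM460 libraries. The NCM460 control runs from -1.04 in the most AT-rich class to 0.84 in the most GC-rich, while the NCM460 library with SCS stays between -0.02 and 0.28.

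A change was called when it exceeded 1.5-fold and its 95% counting interval excluded no change. The interval is the exact Clopper-Pearson one, computed on how a locus divides its fragments between both libraries, and it covers counting error only. By this rule 1943 loci (15.4% of those compared) were called higher with SCS and 1743 (13.8%) lower. Of the 3686 calls, 3411 had the sign of the trend at their GC content, and 2686 of these were no longer called once the trend was subtracted. Calls that held before and after subtraction, named beyond the trend here, numbered 518 higher (4.09%) and 459 lower (3.63%), 977 in all (7.72%). Of these, 136 higher (1.07%) and 116 lower (0.917%), 252 in all (1.99%), went against the sign of the trend, 44 and 39 of them where the trend was at least 0.5 the other way on the log2 scale. Which loci go against the trend depends on the scaling: by total fragments, 22 of the 136 and 9 of the 116 still did. The GC content of a gene depends on which part of it is counted. With the GC content of the coding sequence in place of that of all annotated transcripts, 357 of the 518 (2.82%) and 359 of the 459 (2.84%) were also called beyond the trend, and 78 (0.617%) and 52 (0.411%) also went against it. Below, a log2 change is that of CPM, SCS over control, with a prior count of 2, ranges in brackets are the 95% counting intervals, and "after subtraction" means after the trend of transcript GC was taken off.

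**Figure D2:**
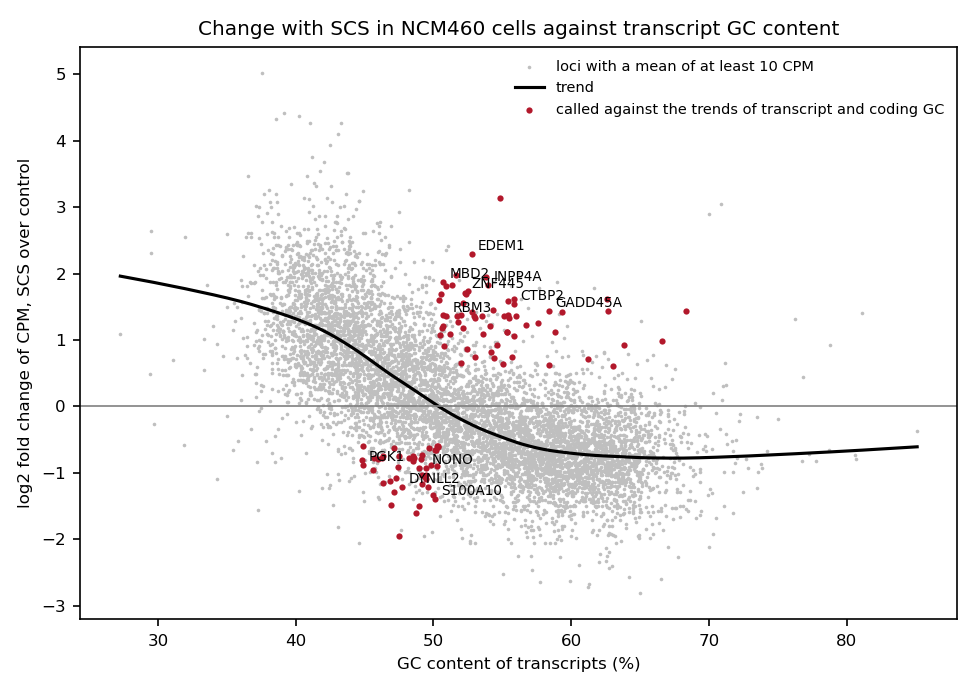
Log2 fold change of CPM, SCS over control (y axis), against the GC content of transcripts (x axis, %), for loci averaging 10 CPM or more in NCM460 cells. Grey points are loci, the line is the trend, and red points are the loci called against the trends of both transcript and coding GC. The cloud falls from left to right with the trend, while CTBP2 and GADD45A lie above 0 on its GC-rich side, and PGK1 and DYNLL2 lie below 0 on its AT-rich side.

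Of the 10 genes named as higher with SCS although the trend pointed down by TMM scaling, those that held with both measures of GC content are given first. GADD45A, a stress-induced gene and p53 target that acts in cell cycle arrest and DNA repair, went from 14 fragments in the control to 55 with SCS (18.0 and 50.9 CPM). Its log2 change was 1.44 (0.63 to 2.46), where the trend stood at -0.66. CTBP2, a transcriptional corepressor, had 17 and 71 fragments, and its log2 change was 1.53 (0.81 to 2.45) with the trend at -0.53. Both transcripts are among the GC-rich ones shown above, and their changes were 2.10 and 2.06 after subtraction. EDEM1, which hands misfolded glycoproteins over to degradation in the endoplasmic reticulum, had 2 and 19 fragments, and its log2 change was 2.30 (0.72 to 5.92). With the control set to the floor of 3 fragments, EDEM1 was at least 4.56-fold higher. RBM3, an RNA-binding protein induced by mild cold, had 27 and 98 fragments, and its log2 change was 1.35 (0.76 to 2.06). Smaller counts lay behind MBD2, a reader of methylated DNA (5 and 29), the zinc finger gene ZNF445 (7 and 35) and INPP4A, a phosphoinositide phosphatase (5 and 28), whose log2 changes were 1.87, 1.71 and 1.82. These 7 were called against the trend with both measures of GC content. With transcript GC the trend stood at -0.07 for RBM3, -0.04 for MBD2, -0.23 for ZNF445, -0.27 for EDEM1 and -0.38 for INPP4A. With coding GC it stood at -0.09 for RBM3, -0.02 for ZNF445 and -0.58 for MBD2. Where the trend is close to 0, its sign says little. EMP2, RALB and SMS are a tetraspan membrane protein, a small GTPase and spermine synthase. They were called against the trend only with transcript GC, where it stood at -0.07, -0.18 and -0.06. EMP2 had 4 and 34 fragments, RALB 6 and 35, and SMS 36 and 119. When libraries were scaled by total fragments, all 10 kept their call beyond the trend. Going against the trend rests on the TMM scaling, since by total fragments only 22 of the 136 higher loci still did.

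Of the 10 genes named as lower with SCS although the trend pointed up, PGK1, DYNLL2, S100A10 and NONO held with both measures of GC content and are given first. PGK1, the phosphoglycerate kinase of glycolysis, went from 492 fragments in the control to 371 with SCS (632 and 343 CPM). Its log2 change was -0.88 (-1.08 to -0.68), where the trend stood at 0.78. DYNLL2, a light chain of dynein and myosin V, had 88 and 52 fragments, and its log2 change was -1.21 (-1.76 to -0.72) with the trend at 0.37. S100A10, the partner of annexin A2 at the plasma membrane, had 92 and 48 fragments, and its log2 change was -1.39 (-1.95 to -0.89). The trend stood at 0.04 for it with transcript GC and at 1.05 with coding GC. NONO, a paraspeckle protein that binds RNA and DNA, had 290 and 211 fragments, and its log2 change was -0.93 (-1.20 to -0.67) with the trend at 0.13. When libraries were scaled by total fragments, S100A10 kept its call beyond the trend, while PGK1, DYNLL2 and NONO lost theirs. GJB2 is a gap junction protein with 15 and 4 fragments, PPP1R10 a phosphatase 1 subunit with 112 and 66, and NHSL1 had 16 and 5. These went against the trend only with transcript GC, where it stood at 0.82, 0.005 and 0.06. They were called lower beyond the trend with both measures. The remaining 3 named by the same rule, HIST1H2AC, HIST2H2BF and HIST1H2AG, are histone genes and are described with their family.

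Sterol synthesis genes that passed beyond the trend were all higher with SCS. The enzymes of the mevalonate pathway build cholesterol from acetyl-CoA, and their genes are switched on together by SREBP2 when sterols in the endoplasmic reticulum run low. Of 25 members compared, 9 were called higher and 3 lower before subtraction, and 7 higher and 0 lower beyond the trend. All 7 were called with coding GC as well. The median log2 change of the list was 0.31 before and 0.64 after subtraction, beside 0.03 and -0.00 over all loci compared.

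HMGCS1, which makes HMG-CoA, went from 8 fragments in the control to 113 with SCS (10.3 and 104.5 CPM), a log2 change of 3.20 (2.32 to 4.59) and 2.25 after subtraction. IDI1, the isopentenyl diphosphate isomerase, had 1 and 41, a log2 change of 3.94 (2.33 to 10.22), or at least 9.84-fold with the control set to the floor. Both enzymes act before squalene is made and their transcripts are AT-rich, so part of each change lay on the trend. INSIG1, the sterol-regulated protein that holds SREBP in the endoplasmic reticulum, is not AT-rich. It had 16 and 87 fragments, and its log2 change was 1.91 (1.19 to 2.84) where the trend was 0.05. FDFT1, squalene synthase, had 53 and 168, a log2 change of 1.18 (0.74 to 1.66) where the trend was 0.07. CYP51A1 (8 and 80, in a locus shared with 1 other gene) and MSMO1 (9 and 102), which remove methyl groups from lanosterol, were also higher beyond the trend. Of the GC-rich members, MVK (19 and 11), TM7SF2 (81 and 58, in a shared locus) and SCAP (82 and 69) were the 3 called lower, and only before subtraction. DHCR7 had 84 and 112 fragments and SREBF2 181 and 216, and neither was called. By total fragments 14 members were called higher and 0 lower, with 10 higher and 0 lower beyond the trend. In HT-29 cells the same list had 21 members called higher and 0 lower.

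Heat shock proteins and chaperonins, which fold new and damaged proteins, split by their GC content before subtraction and then left a core of 7 beyond the trend. Of 37 compared, 19 were called higher and 4 lower. Beyond the trend 7 were higher and 0 lower, 4 of them with coding GC as well, and the median log2 change went from 0.70 to 0.03. By total fragments 25 were called higher and 0 lower, with 8 higher and 0 lower beyond the trend. HSP90AA1, the inducible cytosolic HSP90, went from 119 fragments in the control to 816 with SCS (153 and 755 CPM), a log2 change of 2.29 (2.02 to 2.59) and 1.75 after subtraction. HSPD1, the mitochondrial chaperonin HSP60, had 85 and 605, a log2 change of 2.34 (2.03 to 2.70) and 1.74 after subtraction. CCT2, a subunit of the cytosolic chaperonin, had 25 and 165, and HSPA5, the HSP70 of the endoplasmic reticulum, had 140 and 473. These 4 passed with both measures of GC content. HSP90AB1, the constitutive HSP90, had 1208 and 2297 fragments, and its log2 change was 0.45, close to the trend at 0.37. The stress-induced HSPA1B (61 and 38) and HSPB1 (261 and 184) were called lower before subtraction and not after it. HSP90AA1 was at 606 and 488 fragments in HT-29, and HSPD1 at 710 and 889.

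HSP90AA1 and HSPD1 are shown with their promoters, since both carry the binding motif of the heat shock factor HSF1 in the 250 bases before and 50 after a start site (RefSeq, GRCh38.p14). The motif searched was GAANNTTCNNGAA on both strands, and its matches are in capitals. In HSP90AA1 (chr14:102086995-102087294, minus strand) the match lies at -88 to -76 from the start. In HSPD1 (chr2:197499791-197500090, minus strand) 2 overlapping matches cover -245 to -228.
HSP90AA1: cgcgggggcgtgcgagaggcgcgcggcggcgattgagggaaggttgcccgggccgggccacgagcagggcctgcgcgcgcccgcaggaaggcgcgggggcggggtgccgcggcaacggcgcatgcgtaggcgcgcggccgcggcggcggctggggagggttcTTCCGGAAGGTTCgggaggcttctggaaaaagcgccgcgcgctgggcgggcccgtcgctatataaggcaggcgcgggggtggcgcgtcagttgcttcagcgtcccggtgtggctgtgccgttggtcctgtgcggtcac
HSPD1: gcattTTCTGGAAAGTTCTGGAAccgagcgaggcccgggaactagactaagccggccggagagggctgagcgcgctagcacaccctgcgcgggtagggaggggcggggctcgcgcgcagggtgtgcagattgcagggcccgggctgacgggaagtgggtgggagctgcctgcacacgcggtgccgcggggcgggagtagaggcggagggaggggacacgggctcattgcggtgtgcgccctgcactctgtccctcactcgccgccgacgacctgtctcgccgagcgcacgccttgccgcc
Among the 7 chaperone genes beyond the trend, 3 had a match in such a window (HSP90AA1, HSPA8 and HSPD1), as had 4 of the 28 others searched. A gene was counted here if any of its promoters matched. The share of single promoters with a match was 0.49% of all 35116, which is not the same measure. A match is a run of letters and says nothing of binding. The sterol regulatory motif TCACNCCAC was in 0 of the promoters of 5 sterol genes beyond the trend and in 1.13% of all promoters, counted singly.

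Ribosomal proteins and translation factors also held members that rose beyond the trend of transcript GC and none that fell beyond it. Of 78 ribosomal protein loci, 23 were called higher and 5 lower before subtraction, and 8 higher and 0 lower beyond the trend (3 with coding GC as well). The median log2 change was 0.31 before and 0.30 after subtraction, and 0.18 with coding GC. By total fragments 57 were called higher and 0 lower, with 18 higher and 0 lower beyond the trend. RPS25 had 108 and 351 fragments, and its log2 change was 1.22 (0.91 to 1.55), and RPL11 142 and 407, a log2 change of 1.04 (0.77 to 1.33). Of these 78 loci, 33 hold more than 1 gene, and processed copies make ribosomal counts uncertain. Among 47 translation factors, 21 were called higher and 10 lower before subtraction. Beyond the trend 6 were higher and 0 lower, 4 of them with coding GC as well, and with coding GC 1 was lower. EEF1A1, the elongation factor that brings aminoacyl-tRNA to the ribosome, had 1668 and 5869 fragments, and its log2 change was 1.34 (1.26 to 1.42). EIF4B, a helper of the cap-binding helicase, had 215 and 771.

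Among loci of 1 protein-coding gene, averaging 10 CPM or more, that rose in the trend's own direction and past it, ARHGAP5, BTBD1 and CNOT7 had, with HSP90AA1 and HSPD1, the 5 intervals farthest above it. ARHGAP5, a GTPase-activating protein, went from 0 fragments in the control to 43 with SCS, and was at least 10.3-fold higher once the control was set to the floor of 3 fragments. BTBD1 had 1 and 46, a log2 change of 4.10 (2.50 to 10.38). CNOT7, a deadenylase of the CCR4-NOT complex, had 4 and 87, a log2 change of 3.67 (2.56 to 5.88). TXNRD1, the thioredoxin reductase of the NRF2 programme, had 57 and 311 fragments, and its log2 change was 1.96 (1.56 to 2.41) and 1.48 after subtraction. In its list of 22 NRF2 targets, 3 were higher (with ME1 at 5 and 52 and PRDX1 at 124 and 392) and 1 was lower beyond the trend. Of the 3, 2 were called with coding GC as well. Over all loci compared, 4.09% were higher and 3.63% lower beyond the trend.

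**Figure D3:**
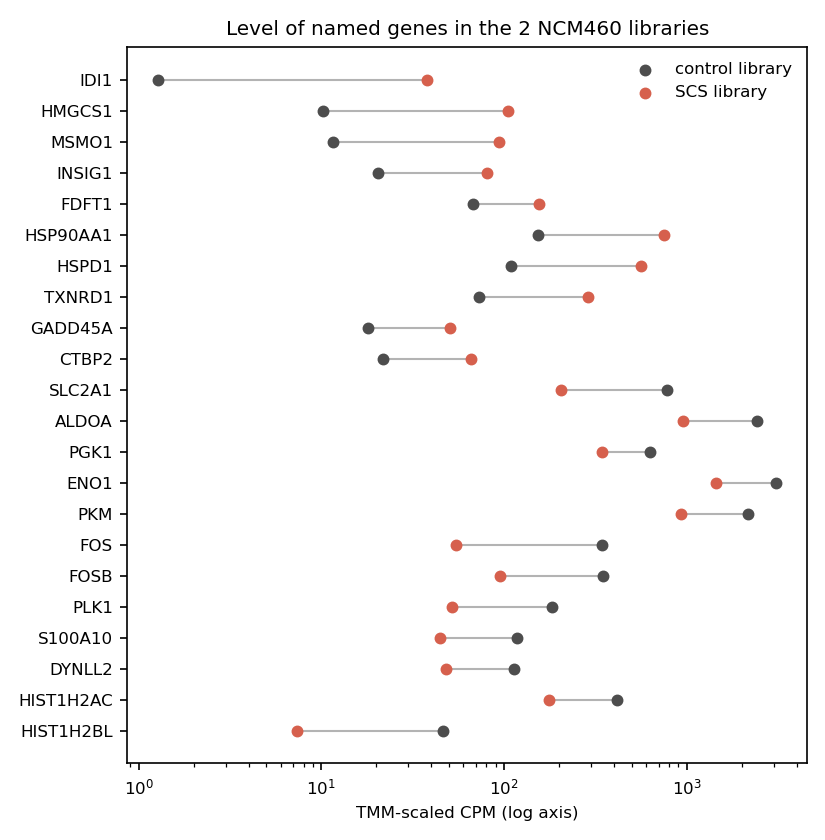
TMM-scaled CPM (x axis, log scale) of 22 genes in the NCM460 control library (dark points) and in the SCS library (red points), 1 library each. The upper 10 genes are higher with SCS, HMGCS1 from 10.3 to 104.5 CPM, and the lower 12 are lower, FOS from 343 to 54.6 CPM.

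Most glycolysis genes were lower with SCS by TMM scaling, though fewer were by total fragments. Of 24 compared, 16 were called lower and 2 higher before subtraction, and 9 lower and 1 higher beyond the trend, 8 of the 9 with coding GC as well. The median log2 change was -0.87 before and -0.57 after subtraction. The falls ran from glucose entry to pyruvate. SLC2A1, the glucose transporter GLUT1, went from 609 fragments in the control to 221 with SCS (782 and 204 CPM), a log2 change of -1.93 (-2.16 to -1.71) and -1.30 after subtraction. HK1, hexokinase 1, had 135 and 89, ALDOA, aldolase, 1895 and 1036, and ENO1, enolase, 2399 and 1563. PKM, pyruvate kinase, had 1676 and 1004 fragments, and its log2 change was -1.21 (-1.33 to -1.10), and PGK1 went against the trend as given above. GPI and PFKFB4 were also lower, in loci shared with other genes. The ninth, ENO2, lies in a locus of 4 genes whose GC content came from the first listed gene, DSTNP2, which has no coding GC value. GAPDH, with 5101 and 3491 fragments, was called lower before subtraction, and its change after subtraction was -0.38. LDHA was at 489 and 606 fragments, a log2 change of -0.16. SLC16A1, the lactate carrier MCT1, was the 1 member higher beyond the trend, with 7 and 38 fragments. When libraries were scaled by total fragments, mitochondrial ones included, 4 members of this list were called lower and 3 higher, with 4 lower and 1 higher beyond the trend. In HT-29, 10 of the list were called lower and 0 higher. SLC2A1 (614 and 436 fragments in HT-29) and PGK1 (574 and 411) were among the 10.

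The AP-1 and immediate early genes, which respond within minutes to growth factors and stress, held 0 members called higher and 16 of 35 called lower by TMM scaling (6 and 5 by total fragments). Beyond the trend 0 were higher and 7 lower, 5 of them with coding GC as well, but by total fragments 5 were higher and 3 lower beyond it. FOS went from 267 fragments in the control to 59 with SCS (343 and 54.6 CPM), a log2 change of -2.62 (-3.08 to -2.24) and -1.92 after subtraction. FOSB, its close relative, had 272 and 103, a log2 change of -1.86 (-2.22 to -1.54). IER2 had 113 and 56, the phosphatase gene DUSP2 19 and 6, and KLF10, a TGF-beta-induced repressor that went against the trend, 50 and 40. JUN, the dimer partner of FOS, was at 95 and 80 fragments with a change of -0.13 after subtraction, and MYC was at 316 and 389. The median log2 change of the list was -0.74 before and -0.35 after subtraction, and -0.03 with coding GC, while FOS and FOSB stood at -1.98 and -1.14 with coding GC. In HT-29, FOS was at 575 and 97 fragments and FOSB at 1453 and 175.

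The replication-dependent histone genes, made in S phase and mostly without a poly(A) tail, were lower in the SCS library in every locus compared by TMM scaling. This list was drawn up after its values were seen. All 43 loci compared had a negative log2 change, 30 were called lower and 0 higher, and the median was -1.004. Beyond the trend of transcript GC 16 were lower, 7 of them against it. With coding GC 8 were lower beyond the trend and 0 went against it. HIST1H2AC went from 323 fragments in the control to 190 with SCS, a log2 change of -1.23 (-1.51 to -0.98). Its transcripts average 41.9% GC, where the trend stood at 1.15, and its coding sequence has 62.8%, where it stood at -0.69. HIST2H2BF (529 and 343) and HIST1H2AG (313 and 210) were of the same kind. HIST1H2BL, with 36 and 8 fragments and a log2 change of -2.45 (-3.96 to -1.51), was lower beyond the trend with both measures, as was HIST1H2BM with 26 and 8. By total fragments 7 of 41 members were called lower and 0 higher, and the median was -0.31. Histone genes are near copies of each other, so the count of any 1 of them is uncertain. In HT-29, 33 of the list were called lower and 0 higher.

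**Figure D4:**
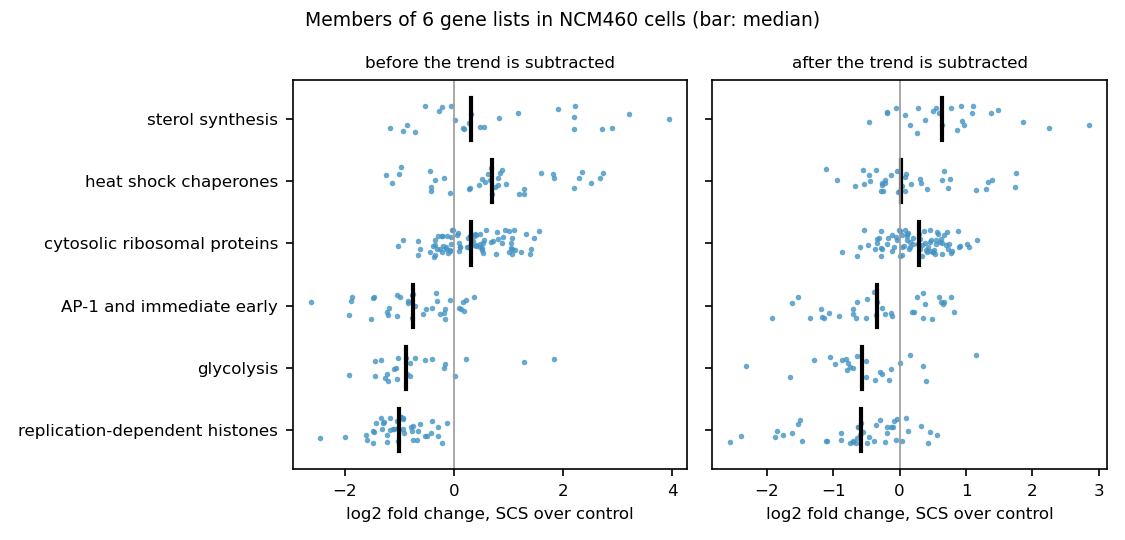
Log2 fold change, SCS over control (x axis), of each member (points) of 6 gene lists in NCM460 cells, before (left) and after (right) the GC trend is subtracted, with the median of each list as a bar. The median of sterol synthesis moves from 0.31 to 0.64, that of the heat shock chaperones from 0.70 to 0.03, and those of glycolysis and the histones stay below 0 at -0.57 and -0.59.

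Among loci chosen the same way that fell past the trend, the 5 farthest below it were FOS, SLC2A1, HIST1H2BL, SF3B4, a subunit of the splicing factor SF3b, and SUPT6H, a histone chaperone of transcription elongation. SF3B4 went from 103 to 34 fragments, a log2 change of -2.03, and SUPT6H from 135 to 73, a change of -1.34.

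Cell cycle genes are given beside the 7.72% of all loci that were called beyond the trend. Of 43 S phase genes, 10 were called higher and 7 lower, with 3 higher and 1 lower beyond the trend. Of 51 G2 and M phase genes, 17 were called higher and 4 lower, with 0 higher and 2 lower beyond it. The 2 were PLK1, the mitotic polo-like kinase, with 142 and 56 fragments and a log2 change of -1.79 (-2.29 to -1.36), and CENPA, in a shared locus and with transcript GC only, with 81 and 65. In HT-29, 36 of the S phase and 37 of the G2 and M phase genes were called lower and 0 higher.

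Genes that make, carry or sulfate glycosaminoglycans, the class of SCS itself, had 8 of 45 members called higher and 6 lower. Beyond the trend 4 were higher and 1 lower. Over all loci compared, 15.4% were called higher and 13.8% lower, and 4.09% and 3.63% beyond the trend. The list's calls before subtraction were thus near those shares. CSPG4, a chondroitin sulfate proteoglycan of the cell surface, went from 54 fragments in the control to 22 with SCS, a log2 change of -1.71 (-2.56 to -1.03). FAM20B, the kinase that primes the linker on which these chains are built, had 21 and 62. HS6ST2, a heparan sulfate sulfotransferase, went against the trend with 5 and 20. DSE, in a shared locus, had 2 and 29, and SLC26A2, the sulfate transporter, had 1 and 18 and passed with transcript GC only.

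For 6 genes or gene products that the study names for these cells, the trend made a difference to some calls. ACAP2, an Arf GTPase-activating protein, had 1 and 26 fragments and was higher beyond the trend, with a log2 change of 3.31 (1.62 to 9.58). With the control set to the floor, it was at least 6.24-fold higher, and 2.73-fold after subtraction. PLK1 was lower beyond it, as above. ABCD3, a peroxisomal transporter (4 and 29), was called higher and POLD1, the catalytic subunit of DNA polymerase delta (72 and 60, in a shared locus), LIG1, DNA ligase I (51 and 46), and PGLS of the pentose phosphate pathway (22 and 14) were called lower before subtraction. None of these 4 was called after it, and LIG1 then stood at 0.06 and POLD1 at 0.05.

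Calls in HT-29 are given beside those in NCM460 cells. Of the 518 loci higher beyond the trend, 119 were called higher and 57 lower in HT-29, where 14.6% and 13.1% of the same 12652 loci were so called. Of the 459 lower beyond the trend, 97 were called lower and 56 higher. The difference between the lines was not tested. FOS, FOSB, the histones and the glycolysis genes SLC2A1 and PGK1 had the same direction in both lines. Sterol synthesis had more members called higher than lower in both. Before subtraction 3 of its members were called lower in NCM460 cells and 0 in HT-29. HSP90AA1, HSPD1, ALDOA and CTBP2 were called in NCM460 cells and not in HT-29.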

How the data were processed

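Per the labels and the study's methods, RNA was extracted with TRIzol from each culture and sequenced as paired reads; bcl2fastq 2.17.1.14, cutadapt 1.9.1, Bowtie2 and HTSeq 0.6.1 are named in the submitters' processing notes. How RNA was selected for the libraries is not given in the sources used here. The notes name hg19, while the coordinates deposited with the table fit GRCh38. The authors deposited 1 table, in which each library has both a count and an FPKM column. The deposited count values are a signal, whole fragments multiplied by a constant of each library. Dividing by the smallest step gave whole fragments for 99.9% of the values in both NCM460 columns (tolerance 0.05). The authors' FPKM values are fragments scaled to transcript length and depth, and served as a check. A count test had been planned on counts, but with 1 library a side neither edgeR's quasi-likelihood test nor DESeq2 could be fitted, so 0 loci were called by either.

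Adjacent genes with identical values were merged to loci, 1812 of 18650 with more than 1 gene. The 26 rows without a gene name (0.0403% and 0.0690% of fragments) were left out. Fragments were scaled by TMM over the 4 libraries (edgeR 4.0.16, R 4.3.3). The trend was a lowess curve (span 0.3, statsmodels 0.14.6) of log2 change on the mean GC content of the annotated transcripts (GENCODE 29), of the first listed gene in loci of several. Totals were 1347854 and 1156568 fragments in NCM460 and 1654764 and 1605372 in HT-29, and precision is given by the counting intervals (scipy 1.17.1). Scripts were tested on simulated data. Genes were named by rule, among loci of 1 protein-coding gene averaging 10 CPM or more whose FPKM moved the same way: the 10 per direction farthest against the trend and the 5 per direction farthest beyond it, then the extreme members of each list, the genes the study names for NCM460 cells (a ribonucleoprotein that it does not identify is not described), and the 10 most abundant loci. Other list members named in the text were chosen after their values were seen. The members and the 46 lists were chosen with earlier results of these data known. Alternatives covered scaling, prior count, filters, depth, loci and the form of the trend. Some loci that meet these rules are not reported here.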

Additional observations from a re-analysis of the deposited data

Results flagged for a closer look

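In 9 loci the NCM460 and HT-29 libraries were called in opposite directions with SCS, each cell line by 1 library a side. These differences were not tested, and both sides share the counting limits given above.

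Higher in NCM460 cells and lower in HT-29 were EMP2, with a log2 change of 2.35 in NCM460 (132 and 76 fragments in HT-29), and SMS, with 1.23 (152 and 72). RFC5, a subunit of the replication clamp loader, had 1.50003 in NCM460 and 40 and 18 fragments in HT-29. MSH6, the mismatch repair gene, had 1.25 and 108 and 50 (but its deposited FPKM in NCM460 was 9.46 in the control and 7.81 with SCS, the other direction), and HMGA2, a chromatin protein, had 0.75 and 29 and 12. The locus of SRSF2, listed under MIR636, had 0.93 and 164 and 91, and that of GSPT1, listed under AC007216.1, had 0.98 and 297 and 192. Both loci hold more than 1 gene, so their assignment is uncertain.

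Lower in NCM460 cells and higher in HT-29 were WARS, the tryptophanyl-tRNA synthetase, and ARHGEF2, a microtubule-bound exchange factor. WARS had -0.88 in NCM460 and 159 and 548 fragments in HT-29, and ARHGEF2 had -1.17 and 168 and 422.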

How the results depend on the processing

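Of 186 alternative values of the counts, the trend and the list medians over 16 settings, 173 were counted as unchanged. That label did not require a list median to keep its sign, only to lie within the interval of the main median. For the chaperones this interval ran from -0.26 to 0.32, and the median after subtraction was 0.03 with transcript GC and -0.15 with coding GC. For the AP-1 list it ran from -0.66 to 0.22, and the medians were -0.35 and -0.03. Scaling by total fragments, which moved the median log2 change of all loci from 0.03 to 0.57, gave 3945 calls higher and 248 lower (94.1% higher, against 52.7%) and 794 and 213 beyond the trend (78.8% higher). The authors' scaling moved that median to -0.11, with 41.997% of calls higher. Single-gene protein-coding loci left 78 higher and 76 lower against the trend. A trend on mean expression in place of GC gave 1647 and 1286 beyond it and 579 and 600 against it, and list medians of 0.82 for the chaperones, 0.58 for ribosomal proteins and -0.77 for the histones. With coding GC 193 loci were higher and 107 lower against the trend (64.3% higher, against 53.97%). The GC of the coding gene in merged loci, an alternative chosen after seeing the data, left 117 and 96. MSH6 stood at -0.068 after subtraction with FPKM ratios. The cause of these shifts was not tested. Of the 90 named loci called beyond the trend, 27 lost that call by total fragments, all of them lower with SCS. No paired analysis was possible because each condition is 1 library. Few fragments limit genes of low level, for which the counting intervals are wide.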

Other observations

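Other groups held members beyond the trend in both directions, as did all loci compared (4.09% higher and 3.63% lower). ARHGAP29, a GTPase-activating protein, had 27 fragments without SCS and 290 with it, and NCKAP1, a subunit of the WAVE complex that drives actin branching, had 10 and 92. Integrin genes divided: ITGB1 had 43 and 234 fragments, with transcript GC only, and ITGB4, the hemidesmosome subunit, had 350 and 167. In the citric acid cycle 4 were higher and 2 lower, with FH, fumarase, at 4 and 35 and IDH3G, a subunit of isocitrate dehydrogenase, at 41 and 19.

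Among 44 genes of mTOR and nutrient sensing, 0 were higher and 3 lower beyond the trend. The shares over all loci compared were 4.09% and 3.63%, to be read beside this list and those that follow. RPTOR, the scaffold of mTORC1, had 78 and 36 fragments, NPRL3 had 46 and 20, and DEPDC5, in a shared locus, had 23 and 11. Of 59 chromatin regulators 1 was higher and 5 were lower. The acetyltransferase gene CREBBP had 86 and 63 fragments and the deacetylase gene HDAC3 had 57 and 34. Of 32 ATF4 targets 1 was higher and 4 were lower, with PCK2 at 51 and 22 and EPRS, the higher one, at 13 and 93. In HT-29, 26 of the same ATF4 targets were called higher and 1 lower.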
